A study of Mus musculus with 24 samples.

Results

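The comparison of common myeloid progenitors (CMP) with colony forming unit megakaryocyte cells (CFUMK) covered 140639 regions of open chromatin, out of 207525 found in the whole series. The series holds ATAC-seq, a method that reads out accessible DNA from the cuts a transposase makes in it, of 24 libraries of 12 mouse blood cell types, and 4 of these libraries, 2 labelled CMP and 2 labelled CFUMK, are compared here, as the labels divide them. Each library was represented by its list of called peaks, stretches of 150 bp with an excess of cuts. An element was a peak seen in both replicates of at least 1 of the 12 types, merged with overlapping elements of the other types, and a group held an element where its replicate peaks overlapped there by 1 bp or more. Elements held by both groups are called kept, those held by CMP and not by CFUMK lost, and those held by CFUMK and not by CMP gained. These words name the direction from the CMP-labelled to the CFUMK-labelled libraries and describe no passage of cells.

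All 4 libraries came from bone marrow of adult male C57BL6 mice, and the labels name no treatment or transgene for them. Where the study lists the RNA libraries of the same populations, it gives CMP as lineage-negative, cKit+, Sca1-, CD34+ and CD16/32- cells, and CFUMK as lineage-negative, Sca1-, CD41+, CD61+ and cKit+ cells. That the ATAC-seq cells were sorted on the same markers is not stated in the sources read. Replicates could, per the methods, be different mice or aliquots from the same animals. The sources do not say which applies to these libraries, and p-values thus cover only their spread, which may be technical. CD41 and CD61 are the products of Itga2b and Itgb3. If that sort was used, more open DNA at those genes in CFUMK, or at Cd34 in CMP, would be no finding. Both sorts take cKit+ cells, so Kit would not be set apart by the sort.

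CMP are progenitors of the myeloid lineages and give rise in culture to granulocytes, monocytes, red cells and megakaryocytes. CFUMK are progenitors committed to megakaryocytes, the large polyploid cells that shed platelets. Megakaryocyte genes are controlled by GATA1 and its partner FOG1, by the ETS factors FLI1 and ERG, and by RUNX1 and GFI1B, and granulocyte genes by CEBP factors and PU.1.

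The promoters of the CFUMK markers went against the label. Of 16 kept promoter elements of 6 CFUMK markers, 7 had a lower score in the CFUMK-labelled libraries and 0 a higher one, where 9.06% of all kept promoter elements scored lower and 25.0% higher. The CMP markers did not separate from that background: of 8 kept promoter elements of 5 genes 3 scored higher in the CFUMK-labelled libraries (2 at Mpo, 1 at Kit) and 0 lower, and 1 scored higher without CFUMK replicate 2. The libraries are therefore called CMP-labelled and CFUMK-labelled throughout, and every direction given rests on the labels as they stand. The cause was not tested.

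The elements whose sequence is shown were chosen by a rule. From the distal elements within 20 kb of or inside a gene of the megakaryocyte, granulocyte or monocyte lists, those without a peak in either library of the other group were ranked by the lower of their 2 scores, and the first 4 genes of each kind were taken (85 lost elements of 53 genes and 189 gained elements of 93 genes qualified). The score is the strength the peak caller gave a peak, in a unit that is not stated. The 200 bases about each centre, on the plus strand of mm10, have in capitals any match on either strand to 5 motifs, AGATAA (bound by GATA factors), TTGCNNAA (CEBP), TGTGGTT (RUNX), ACAGGAA (ERG and FLI1) and AGAGGAAGT (PU.1). The last pair shares the core GGAA, but no run of letters matches both whole. The 4 lost elements lie downstream of Gfi1b, which encodes a repressor needed for platelets and red cells (chr2:28599319-28599518, intergenic), upstream of Nfe2, a factor of platelet release (chr15:103260151-103260350, intergenic), in an intron of Zfpm1, which encodes FOG1 (chr8:122304175-122304374), and upstream of Ptgir, the prostacyclin receptor gene (chr7:16903525-16903724, intergenic).
lost near Gfi1b: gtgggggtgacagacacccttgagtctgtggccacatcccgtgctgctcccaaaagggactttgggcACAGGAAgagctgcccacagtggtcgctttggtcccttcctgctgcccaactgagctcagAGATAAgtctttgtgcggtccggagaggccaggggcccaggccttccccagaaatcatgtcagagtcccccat
lost near Nfe2: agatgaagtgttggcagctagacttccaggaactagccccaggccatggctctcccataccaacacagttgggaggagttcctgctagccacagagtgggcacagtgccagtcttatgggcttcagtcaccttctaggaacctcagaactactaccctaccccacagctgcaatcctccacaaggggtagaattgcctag
lost in Zfpm1: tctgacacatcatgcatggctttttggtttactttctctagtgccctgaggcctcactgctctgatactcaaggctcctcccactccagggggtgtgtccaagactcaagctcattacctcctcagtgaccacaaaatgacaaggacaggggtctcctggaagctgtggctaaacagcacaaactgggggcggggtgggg
lost near Ptgir: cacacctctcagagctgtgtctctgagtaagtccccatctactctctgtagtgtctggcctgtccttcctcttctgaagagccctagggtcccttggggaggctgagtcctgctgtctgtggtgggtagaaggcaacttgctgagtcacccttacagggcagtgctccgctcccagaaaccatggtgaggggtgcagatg

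The element near Gfi1b scored 22.7 and 28.4 in CMP replicates 1 and 2 and was also called in LSK cells, the compartment of lineage-negative, Sca1+, cKit+ cells that holds the stem cells. It carries 1 GATA and 1 ERG and FLI1 match. Those near Nfe2 (19.2 and 27.3), in Zfpm1 (23.6 and 19.1) and near Ptgir (18.6 and 19.1) hold none of the 5 motifs in these 200 bases. The Zfpm1 element was called in none of the other 10 types, and the other two were called in granulocyte monocyte progenitors (GMP).

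The 4 gained elements lie in an intron of Zfpm1 (chr8:122286996-122287195), in an intron 2328 bp from a start of Fpr2 and within 20 kb of Fpr1, both formyl peptide receptor genes of neutrophils (chr17:17890116-17890315), 6729 bp from Hp, the haptoglobin gene (chr8:109585801-109586000, intergenic), and in an intron of Plek, the gene of the platelet protein pleckstrin, which leukocytes make too (chr11:16987764-16987963).
gained in Zfpm1: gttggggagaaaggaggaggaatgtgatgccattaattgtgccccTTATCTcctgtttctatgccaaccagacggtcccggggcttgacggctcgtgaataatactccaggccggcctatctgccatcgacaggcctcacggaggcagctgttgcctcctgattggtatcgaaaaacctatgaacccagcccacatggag
gained near Fpr1: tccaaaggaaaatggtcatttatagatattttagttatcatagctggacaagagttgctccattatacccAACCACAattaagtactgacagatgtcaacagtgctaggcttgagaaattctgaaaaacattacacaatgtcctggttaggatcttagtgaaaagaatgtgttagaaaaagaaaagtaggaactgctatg
gained near Hp: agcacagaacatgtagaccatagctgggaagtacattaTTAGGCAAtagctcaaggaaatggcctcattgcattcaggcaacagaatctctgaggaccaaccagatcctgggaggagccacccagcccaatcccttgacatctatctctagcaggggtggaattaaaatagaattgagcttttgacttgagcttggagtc
gained in Plek: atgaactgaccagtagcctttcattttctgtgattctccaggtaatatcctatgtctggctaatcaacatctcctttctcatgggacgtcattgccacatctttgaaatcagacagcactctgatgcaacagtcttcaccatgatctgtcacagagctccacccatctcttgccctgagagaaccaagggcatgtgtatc

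The gained Zfpm1 element scored 27.5 and 33.4 in CFUMK replicates 1 and 2, carries a GATA match, and was called in megakaryocyte erythroid progenitors (MEP), in both later erythroid types and in the 2 cell lines G1E and G1E-ER4+E2. The elements near Fpr1 (24.8 and 24.9, a RUNX match), near Hp (26.8 and 24.5, a CEBP match) and in Plek (32.9 and 23.2, no match) were all called in GMP and in immature megakaryocytes (iMK). None of the 8 elements had a peak in either library of the other group. Zfpm1 thus had a strong element of each kind in its introns.

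The CMP-labelled libraries held 223355 and 204055 peaks and the CFUMK-labelled libraries 202625 and 197175, against 52720 to 230877 in the other 20 libraries. The low scores of each list are multiples of a step, whose inverse gives a relative depth of 100% and 47.1% for CMP replicates 1 and 2 and of 74.9% and 56.9% for CFUMK replicates 1 and 2. CMP replicate 1 was thus the deepest and CMP replicate 2 the shallowest of the 4. Of the peaks of CMP replicate 1, 73.6% overlapped a peak of its own replicate, and 73.8% and 71.6% overlapped one of CFUMK replicates 1 and 2. In CFUMK replicate 2, 87.1% overlapped its own replicate and 77.2% and 71.7% overlapped CMP replicates 1 and 2.

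Most elements were shared. Of 107984 CMP elements, 90841 (84.1%) were kept and 17143 (15.9%) were lost, and of 123496 CFUMK elements 32655 (26.4%) were gained. Between single libraries of the 2 groups 83.9% to 86.2% of CMP elements and 73.9% to 80.8% of CFUMK elements had a peak, against 84.5% to 92.0% within CMP and 90.3% to 92.8% within CFUMK. The range from CMP to CFUMK thus overlapped the range within CMP, whereas that from CFUMK to CMP lay below the range within CFUMK. With 2 libraries against 2 an exact two-sided permutation test cannot give a p below 1 in 3, so these shares carry no test.

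That gained elements outnumbered lost ones depended on the rule for a call. With a peak in either replicate of both groups counted as a call, 44242 were lost and 35716 gained. A group represented by 1 library holds more elements by construction, and CMP replicate 1 alone gave 49851 lost and 20298 gained, CMP replicate 2 alone 33257 and 28659, CFUMK replicate 1 alone 11998 and 49220, and CFUMK replicate 2 alone 14215 and 47088. The part of depth in this order was not tested. Of the lost elements 9111 (53.1%) had no peak in either CFUMK-labelled library, and of the gained elements 16315 (49.96%) had none in either CMP-labelled library. Among gained elements with a peak in exactly 1 CMP-labelled library, the peak was in the deeper CMP replicate 1 at 12242 and in CMP replicate 2 at 3885.

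A smaller share of promoter than of distal elements was lost or gained. A promoter element has its centre within 1 kb of an annotated transcript start, and all others are distal. Of the kept elements 26245 were promoter elements and 64596 distal, of the lost 3399 and 13744, and of the gained 4750 and 27905. Promoters thus made up 28.9% of kept, 19.8% of lost and 14.5% of gained elements, against 22.4% of all elements of the series. Put by position, 11.5% of promoter and 17.5% of distal CMP elements were lost, and 15.3% of promoter and 30.2% of distal CFUMK elements were gained. Between single libraries 86.9% to 89.9% of CMP promoter elements and 82.6% to 85.0% of distal ones were found in CFUMK. The other way it was 85.2% to 88.0% and 70.2% to 78.4%, and the ranges did not overlap in either direction. Between replicates it was 90.2% to 91.9% and 82.6% to 92.1% within CMP, and 92.1% to 94.2% and 89.7% to 92.4% within CFUMK. Kept promoter elements also scored higher, with a median of 17.7 against 9.65 for distal ones in CMP replicate 1. The part of score and of replicate agreement in the promoter difference was not tested.

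Among distal elements the gained share hardly changed with the distance to the nearest start. In 4 classes, from the nearest to the farthest, it was 29.9%, 30.2%, 30.3% and 30.4%, while the lost share was 17.2%, 16.9%, 18.5% and 20.5%, the last of 2000 CMP elements. Introns had a gained share of 32.3%, intergenic DNA 27.5% and exons 29.6%.

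Lost and gained elements had lower scores than kept ones. Lost elements had a median score of 4.72 in CMP replicate 1 and 5.23 in CMP replicate 2, where kept elements had 11 and 11.1. Gained elements had 5.29 and 5.66 in CFUMK replicates 1 and 2, where kept elements had 12.6 and 13. In CMP replicate 1 0.216% of lost and 20.1% of kept elements were in the top 10% of the list, and in CFUMK replicate 1 0.328% of gained and 18.4% of kept ones. When the distal CMP elements were split into 10 equal classes by score, 49.6% of the weakest and 99.6% of the strongest were kept. For distal CFUMK elements these were 35.1% and 97.8%, and each class was lower than the same class of CMP.

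**Figure D1:**
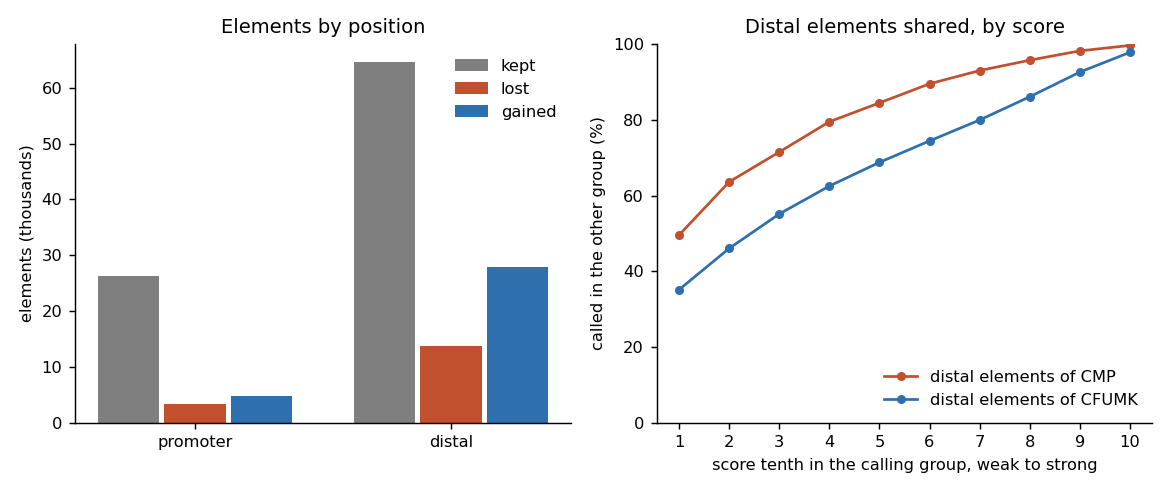
The left panel plots the number of kept, lost and gained elements at promoters and at distal sites, as bars. The right panel plots the share of distal elements (%) that the other group also holds against 10 equal classes of score, from weak to strong, which climbs from 49.6% to 99.6% for CMP and from 35.1% to 97.8% for CFUMK.

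The other 10 cell types, which the rule did not use, separated the 3 classes. Of the gained elements 45.2% were held by GMP (57.2% and 47.4% in its single libraries), 36.1% by MEP, 33.6% by iMK and 5.59% by LSK. Of the lost elements 29.3% were held by GMP (51.6% and 32.7% in its single libraries), 24.7% by LSK, 18.2% by iMK and 7.95% by MEP. Of the kept elements these 4 types held 83.0%, 64.1%, 74.1% and 57.5% in the same order. Of all elements of the series, some of them found only through these types, they held 54.9%, 33.3%, 47.1% and 36.6%. Gained elements were near that share in MEP and below it in GMP, iMK and LSK. Lost elements were below it in all 4 types. LSK was thus the type in which lost elements were found more often than gained ones, and MEP, GMP and iMK held gained elements more often. The libraries of LSK differed: 35.0% of gained elements had a peak in LSK replicate 1 and 8.95% in LSK replicate 2, while 46.9% and 34.0% of lost ones did. Within LSK replicate 1 alone the excess of lost over gained elements was thus smaller. In GMP replicate 1 alone the excess of gained over lost elements was smaller too.

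The gained elements were mostly shared with either GMP or MEP. With a call in both replicates, GMP without MEP held 13330 of them (40.8%), MEP without GMP 10350 (31.7%), and both types together 1442 (4.42%). For kept elements these shares were 36.7%, 11.2% and 46.3%. With a peak in either replicate GMP held 59.2% and MEP 48.3% of the gained elements, so that more were then shared by both. Colony forming unit erythroid cells or erythroblasts held 5232 gained elements (16.0%) and blood monocytes or neutrophils 4019 (12.3%). For lost elements these were 874 (5.10%) and 1694 (9.88%). Of the lost elements 7109 (41.5%) were called in none of the other 10 types, against 4831 (14.8%) of the gained and 2166 (2.38%) of the kept.

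**Figure D2:**
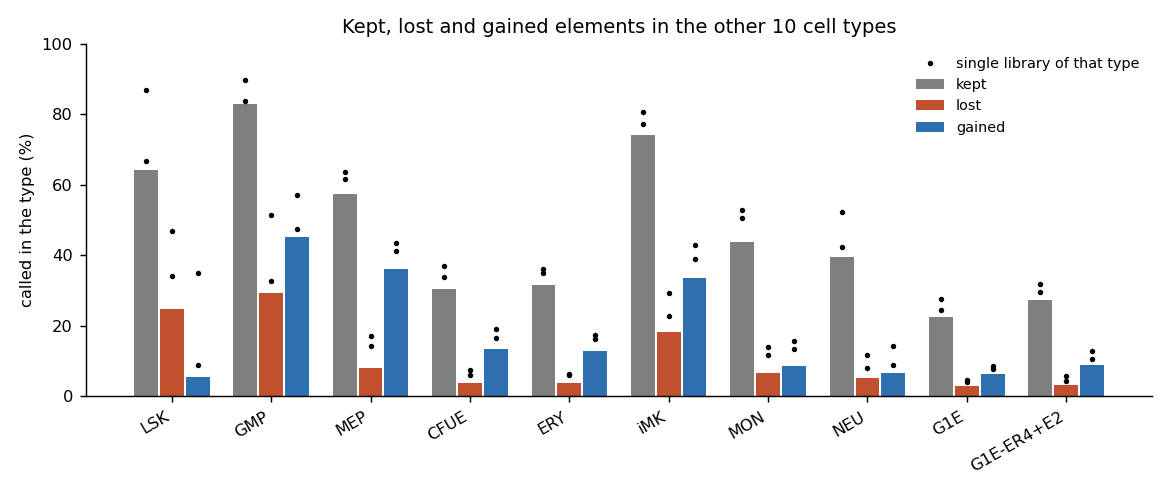
Bars give the share (%) of kept, lost and gained elements that each of the other 10 cell types holds in both replicates, and dots the share with a peak in each of its single libraries. Gained bars stand above lost bars in every type but LSK, where the lost bar is 24.7% and the gained bar 5.59%, with widely spaced dots.

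The letters of distal elements differed between the classes too. GATA letters were in 20.7% of gained, 15.6% of lost and 14.0% of kept distal elements, against 15.7% of all distal elements and 11.6% of the same windows moved by 10 kb. CEBP letters were in 15.9% of gained, 7.63% of lost and 11.5% of kept ones (12% of all, 8.17% when moved). RUNX letters went the other way, with 15.1% of lost, 8.09% of gained and 10.9% of kept elements (9.56% of all, 5.03% when moved), and so did those of ERG and FLI1, with 17.0%, 9.94% and 13.3% (12.4% of all, 5.94% when moved). The sign of the gained minus lost difference held when each library was left out, with 2.18 to 7.65 points for GATA, 6.87 to 10.4 for CEBP, -7.37 to -2.92 for RUNX and -7.84 to -3.16 for ERG and FLI1, nearest to 0 without CFUMK replicate 2 for GATA and without CMP replicate 2 for the last pair. The motif of CTCF, which anchors chromatin loops, was in 7.19% of kept, 1.88% of lost and 3.36% of gained distal elements (4.05% of all, 0.639% when moved).

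Gained elements shared with MEP and with GMP carried different letters. In the 9950 distal gained elements called in MEP, GATA letters were in 40.5%, CEBP letters in 7.43% and PU.1 letters in 0.332%. In the 12660 called in GMP these were 7.80%, 25.1% and 4.19%. Kept distal elements split the same way, with 18.6%, 8.37% and 1.24% of those called in MEP and 10.1%, 12.5% and 4.40% of those called in GMP. Over all distal gained elements PU.1 letters were in 2.47%, against 3.81% of lost and 3.78% of kept ones. A match describes the letters of the window and does not show that a factor was bound.

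**Figure D3:**
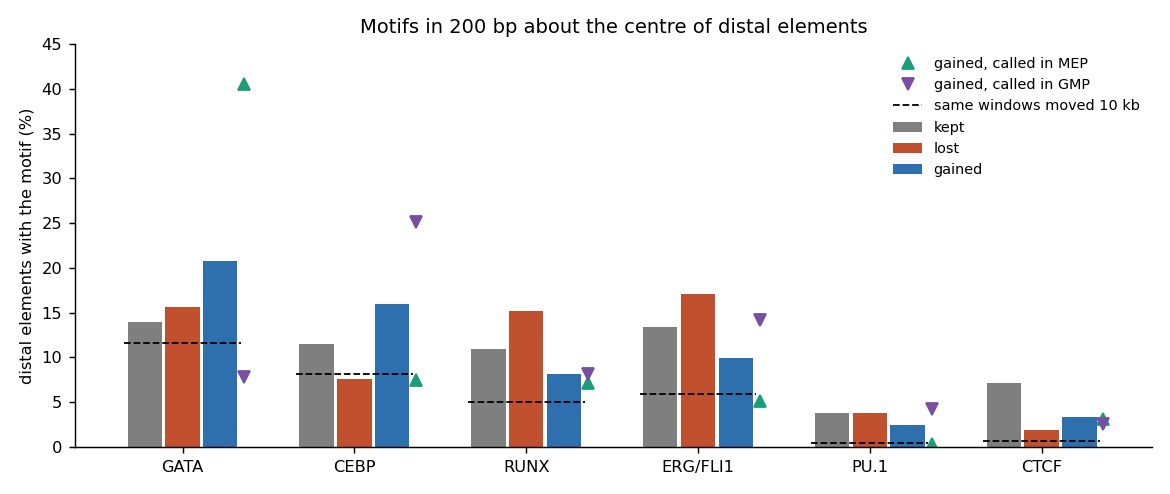
Bars give the share (%) of kept, lost and gained distal elements whose central 200 bp hold each motif, dashed lines the share in windows moved by 10 kb, and triangles the gained elements called in MEP or in GMP. For GATA the MEP triangle is at 40.5% and the GMP triangle at 7.80%, and for CEBP they are at 7.43% and 25.1%.

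Kept elements differed in score as well. The score of each kept element was compared by limma, a linear model with variances shared across elements, on log2 values centred on each library's median. At an adjusted p under 0.05 (Benjamini-Hochberg, two-sided) 15643 of 90841 kept elements (17.2%) scored higher in the CFUMK-labelled libraries and 13401 (14.8%) lower, and 4936 and 5923 of these by over 2-fold. Without CFUMK replicate 1 these counts were 9828 and 8629, and without CFUMK replicate 2 they were 7362 and 6685. Replicate differences had an SD of 0.41 in CMP and 0.31 in CFUMK on the log2 scale. Promoters leaned upwards, with 6567 of 26245 (25.0%) higher and 2377 (9.06%) lower and a median log2 difference of 0.15, while distal elements had 9076 (14.1%) higher and 11024 (17.1%) lower and a median of -0.06. The centring sets this balance: higher elements were 53.9% of the calls as reported and 39.1% when libraries were centred on kept promoters, which moved the median of all kept elements to -0.12. An element that scores lower may be open in fewer cells or be less open per cell, and these cannot be told apart here.

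The score differences followed the cell type that shared the element. Of 1716 distal kept elements called in LSK and in neither GMP nor MEP, 5 scored higher and 887 (51.7%) lower, with a median log2 difference of -0.81. Of 6426 called in MEP and in neither LSK nor GMP 37.2% scored higher and 7.83% lower (median 0.40), and of 13759 called in GMP alone of these types 17.9% and 9.10% (median 0.03). The 2148 shared with both later erythroid types and with neither LSK nor GMP had 66.1% higher and 1.40% lower, with a median of 0.96. The 608 called in iMK and in none of LSK, GMP and MEP had 2.30% higher and 14.3% lower, and the 1893 found in none of the other types 0.370% and 26.6%. All medians stand beside that of -0.06 over all distal kept elements.

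The largest fall was in an intron of Cavin2, which encodes a caveola coat protein, and the largest rise in an intron of March1, which encodes a ubiquitin ligase of immune cells. The 200 bases about their centres (chr1:51300425-51300624 and chr8:66343047-66343246, plus strand, mm10) hold none of the 5 motifs.
kept, Cavin2: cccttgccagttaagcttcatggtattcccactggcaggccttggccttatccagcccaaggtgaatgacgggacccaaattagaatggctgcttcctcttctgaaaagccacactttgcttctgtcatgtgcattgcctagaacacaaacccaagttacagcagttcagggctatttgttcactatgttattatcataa
kept, March1: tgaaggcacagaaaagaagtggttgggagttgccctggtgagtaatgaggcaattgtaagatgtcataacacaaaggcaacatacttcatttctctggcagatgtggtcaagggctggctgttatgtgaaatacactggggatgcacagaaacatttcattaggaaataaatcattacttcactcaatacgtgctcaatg

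The Cavin2 element scored 47.7 and 42.3 in the CMP-labelled and 6.01 and 3.58 in the CFUMK-labelled libraries, a log2 difference of -3.49 (SE 0.25, limma adjusted p = 4.46e-08), and was called elsewhere only in LSK. The March1 element scored 2.47 and 5.69 against 38.2 and 47.1, a log2 difference of 3.29 (SE 0.30, limma adjusted p = 3.64e-07), and was called in GMP, iMK and monocytes. Further falls lay nearest to Olfr1389 (-2.95), Rbfox1 (-2.93) and Bcl11a (-2.78), and the next rises nearest to Thbs1 (3.14, at 186236 bp), Retnlb (3.04), Lrrk2 (3.02) and Ndfip2 (3.00). These rises were all at elements that GMP and iMK also held, and none of the falls named was held by either. Of the falls, those near Cavin2, Rbfox1 and Bcl11a were held by LSK.

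The markers of the CFUMK label were examined promoter by promoter. Pf4, which encodes the chemokine platelet factor 4, scored 40.9 and 41.6 in the CMP-labelled and 16.3 and 14 in the CFUMK-labelled libraries over its RefSeq start, a log2 difference of -1.66 (SE 0.19, limma adjusted p = 1.84e-06). Itga2b, the CD41 gene, scored 37.3 and 42.5 against 14.5 and 14.9 over its RefSeq start, a difference of -1.65 (SE 0.19, limma adjusted p = 1.91e-06). An element at another start inside Itga2b scored 43.7 and 39.8 against 61.1 and 58.8 and did not pass the test (log2 difference 0.31, limma adjusted p = 0.11). The values of these 2 elements thus went in opposite directions, and the difference between them was not tested.

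Gp1bb and Gp9 encode parts of the von Willebrand receptor, and both had lower scores. Gp1bb scored 13 and 18.7 against 5.29 and 7.17 (-1.55), and Gp9 16.9 and 20.7 against 10.3 and 7.35 over its RefSeq start (-1.32). Itgb3, the CD61 gene, had an element at another start inside the gene at 13 and 18 against 10.3 and 8.11 (-0.95, limma adjusted p = 0.00565). Without CFUMK replicate 2 this difference was -0.76 and the call was lost. The Itgb3 element over the annotated start of the gene scored 10.1 and 11.6 against 14 and 10.9. It did not pass the test (log2 difference -0.02, limma adjusted p = 0.957). Vwf, the von Willebrand factor gene, had its strongest element at 33.6 and 37.1 against 51.5 and 50.7 (log2 difference 0.32, limma adjusted p = 0.116), which did not pass the test. Another Vwf element scored 12.4 and 21.6 against 10.7 and 10.9 (-0.81, limma adjusted p = 0.0177, and 0.255 without CMP replicate 2, 0.0646 without CFUMK replicate 1 and 0.0850 without CFUMK replicate 2). The other 9 of the 16 elements did not pass the test. Without CMP replicate 1, or without CMP replicate 2, 1 marker element scored higher in the CFUMK-labelled libraries.

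Of the CMP markers, Kit, the stem cell factor receptor gene, scored 51.4 and 35.3 in the CMP-labelled and 89.7 and 89.8 in the CFUMK-labelled libraries over its RefSeq start (log2 difference 0.86, SE 0.16, limma adjusted p = 0.000266). Mpo, which encodes myeloperoxidase, scored 11.3 and 9.33 against 21 and 23.4 (0.90, limma adjusted p = 0.00348, and 0.0765 without CFUMK replicate 2). Its second element, at 7.93 and 10.2 against 16.2 and 16.6, lost its call in 5 of the 7 alternatives. Cd34, Flt3 and Cebpa had no promoter element past the test, and Cd34 scored 59.7 and 65.7 against 60.4 and 67.1. Without CFUMK replicate 2 only 1 of the 8 elements of these genes scored higher, and with quantile normalization 2 scored lower.

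**Figure D4:**
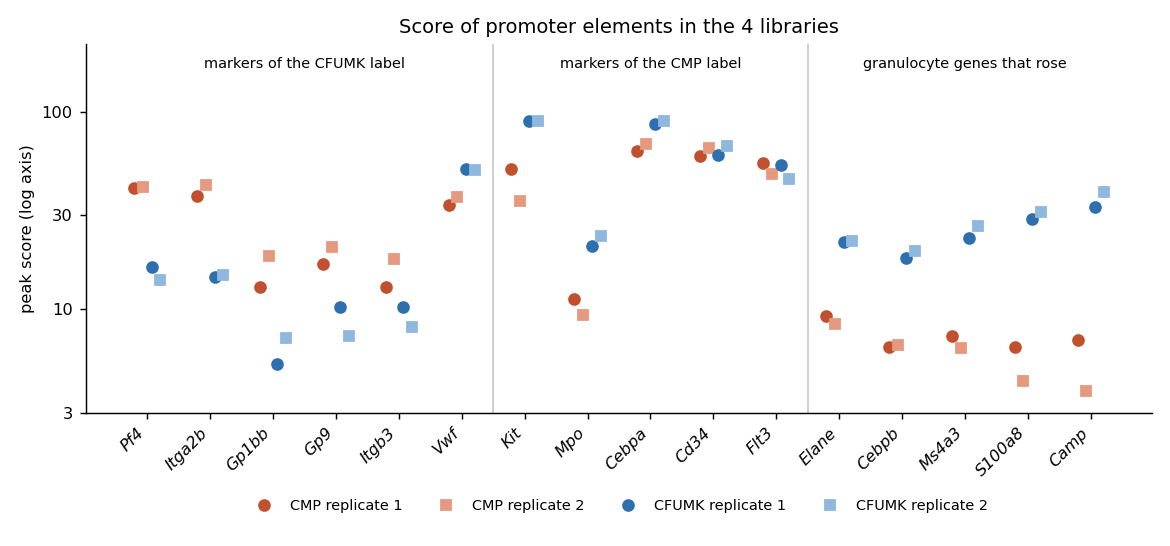
Points give the peak score (log axis) in each of the 4 libraries at 1 promoter element per gene (over the RefSeq start, or the one with the highest mean score where no kept element lies there), for markers of the CFUMK label, markers of the CMP label and granulocyte genes chosen among those that rose. For Pf4 both CMP points stand near 41 and both CFUMK points at 14 and 16.3, while for Camp the CMP points are at 3.87 and 6.97 and the CFUMK points at 32.9 and 39.4.

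In cell types outside the comparison a gene's promoter was given by its highest peak within 500 bp of any start, on scores that are not scaled between libraries. On this measure Itga2b scored 43.7 and 42.5 in the CMP-labelled and 61.1 and 58.8 in the CFUMK-labelled libraries, and Vwf 33.6 and 37.1 against 51.5 and 50.7, so the values of both come from other elements than those called lower. In iMK replicates 1 and 2 Itga2b scored 47.2 and 38.4, Itgb3 43.8 and 48.5 and Vwf 37.3 and 31.8, while Pf4 scored 6.96 and 10.4, Gp9 0 and 2.99, and Gp1bb 0 and 4.08. In LSK replicates 1 and 2 Pf4 scored 28.4 and 15.7 and Gp9 14.4 and 15.7. In GMP Pf4 scored 20.5 and 10 and Gp9 4.11 and 3.61, while Itga2b scored 72.3 and 45.4, Itgb3 24.1 and 14.2 and Vwf 40.7 and 26.5. The iMK-labelled libraries thus had peaks at Itga2b, Itgb3 and Vwf and were low or without a peak at Pf4, Gp9 and Gp1bb. Of these genes, only at Itgb3 did both iMK libraries stand above every library of LSK, CMP, GMP, MEP and CFUMK. A call in iMK should be read with these values in view. At Pf4 and Gp9 both CMP-labelled libraries stood above every library of LSK, GMP, MEP, iMK and CFUMK.

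The promoters of Itga2b and of Camp, a gene of neutrophil granules, are shown because their scores differed in opposite directions. Each runs over 300 bases from RefSeq (GRCm38.p6) on the minus strand, the gene's own (chr11:102469834-102470133 and chr9:109849407-109849706), and neither holds any of the 5 motifs. Of 32851 RefSeq promoters of this length 11.2% hold GATA, 10.8% CEBP, 8.67% ERG and FLI1, 5.27% RUNX and 1.00% PU.1 letters.
Itga2b: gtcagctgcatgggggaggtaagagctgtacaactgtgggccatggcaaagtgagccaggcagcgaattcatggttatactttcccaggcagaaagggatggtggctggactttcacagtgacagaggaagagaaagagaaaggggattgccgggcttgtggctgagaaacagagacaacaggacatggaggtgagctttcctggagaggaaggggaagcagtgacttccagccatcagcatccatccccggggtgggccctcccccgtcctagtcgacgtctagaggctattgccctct
Camp: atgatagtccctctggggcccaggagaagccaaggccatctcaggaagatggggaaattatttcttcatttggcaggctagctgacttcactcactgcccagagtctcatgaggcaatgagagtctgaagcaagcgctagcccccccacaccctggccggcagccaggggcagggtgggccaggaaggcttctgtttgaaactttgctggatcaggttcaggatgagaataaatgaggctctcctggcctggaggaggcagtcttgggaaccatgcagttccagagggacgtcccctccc

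For single genes, a promoter was called if any of its starts had a peak no farther than 500 bp away. Of 21911 protein-coding genes, 185 (0.844%) had a promoter called in both CMP-labelled and neither CFUMK-labelled library, and 140 (0.639%) the reverse. Among the listed genes the first group included Tbxa2r, the thromboxane receptor gene, Treml1, a platelet granule receptor gene, and Cd3d, of the T cell receptor complex. The second held Clec1b, the podoplanin receptor gene of platelets, the neutrophil genes Cebpe, Ngp and Fcnb, and Hbb-bt, an adult beta-globin gene. Of 34 granulocyte genes 0 were thus in the first group and 3 in the second.

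Tbxa2r scored 14.4 and 13 and was called in no other library of the series. Treml1 scored 4.61 and 5.91.

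Cebpe, which encodes a factor of late granulocyte development, scored 9.30 and 9.05 in the CFUMK-labelled libraries, 17.4 and 14.7 in GMP and 34.4 and 34.5 in iMK. Ngp scored 11.2 and 8.30, with 14.3 and 11.9 in GMP and 50.1 and 42.6 in iMK, and Fcnb 7.58 and 8.49, with 16.4 and 11.4 in GMP. All 3 also had a peak in LSK replicate 1 and none in LSK replicate 2. Hbb-bt scored 4.86 and 8.86 within 500 bp of its start, against 153 to 262.4 in the 4 libraries of the later erythroid types. The element over its start extends into the gene, where the CMP-labelled libraries had peaks of 15.3 and 13.6, so the element itself counted as kept.

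Of the 43 kept promoter elements of 20 megakaryocyte receptor genes, 18 scored lower and 1 higher in the CFUMK-labelled libraries, with a median log2 difference of -0.57, against 9.06% lower, 25.0% higher and a median of 0.15 over all kept promoter elements. Beside the markers above, the lower ones were F2rl2 and F2rl3, receptors for thrombin (-1.70 and -1.67), Gp1ba, of the von Willebrand receptor (41.1 and 37.3 against 21.9 and 23.0, -1.01), and Jam3 (-1.13 and -0.87), P2rx1 (-0.82), P2ry12 (-0.83), Cd226 (-0.84 and -0.65), Esam (-0.71 and -0.54) and Itga6 (-0.88). P2ry1, a receptor for ADP, was the higher one, at 48.7 and 50 against 100.2 and 103.3 (0.83). In at least 1 fit without a CFUMK library the calls at Jam3, P2rx1, P2ry12, Cd226 (at the first element), Esam and Itga6 were lost. Centred on promoters, 24 elements of this list scored lower and 1 higher, and without CFUMK replicate 1 or 2 there were 12 lower.

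The other megakaryocyte lists had smaller shares of lower promoter elements. Granule and cytoskeleton genes had 8 of 57 elements higher and 11 lower (14.0% and 19.3%, median -0.04), with Pf4 and Plek (33.8 and 36.6 against 14.9 and 13.4, -1.53) lowest and Rap1b, a small GTPase of integrin activation, highest (28.1 and 26.4 against 69.5 and 81.7, 1.26). Transcription factor genes had 14 of 52 higher and 6 lower (26.9% and 11.5%, median 0.04). Among them Mecom, of the stem cell factor EVI1, scored 11 and 11.8 against 5.87 and 3.21 (-1.60), Runx1 16.3 and 17.5 against 41.5 and 44.9 (1.14) and Lmo2 15.9 and 11.6 against 38.5 and 47.5 (1.44). The 23 factor genes all had a called promoter in each of the 4 libraries. A promoter call alone therefore did not separate the groups at these genes.

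Genes of thrombopoietin signalling had 10 of 42 promoter elements higher and 2 lower (23.8% and 4.76%, median 0.32). All kept promoter elements had 25.0% higher and 9.06% lower (median 0.15), so the higher share of this list was near that of all. Jak2, a cytokine receptor kinase gene, scored 19.5 and 9.10 against 36.6 and 39.2 (1.30), and Stat5a, a factor that it activates, 12 and 5.91 against 19.7 and 25.8 (1.21). Genes of endomitosis and the cell cycle had 14 of 40 higher and 3 lower (median 0.29), with Ccne1, the cyclin E1 gene, at 42.0 and 28.0 against 91.9 and 95 (1.23) and Arhgef2 at 26.1 and 20.7 against 11.2 and 10.7 (-1.30). Housekeeping genes had 14 of 33 higher and 0 lower (median 0.36). Both signalling and cycle medians lay below that of the housekeeping list.

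Distal kept elements nearest to megakaryocyte genes moved both ways. That near Selp, the P-selectin gene, went from 16.7 and 23.2 to 4.15 and 4.71 (-2.37), that near Pear1, a platelet contact receptor gene, from 14.4 and 21.4 to 5.29 and 5.09 (-1.97), and that near Mecom from 12.8 and 11.8 to 2.86 and 2.45 (-2.43). A pair of elements near Cd36, which encodes a receptor of platelets and erythroid cells for thrombospondin, rose from 12.7 and 6.60 to 34.5 and 44.7 (1.89) and from 7.93 and 5.46 to 18.7 and 29.0 (1.61), and MEP and the later erythroid types held both. Erg had a pair that rose (1.70 and 1.64), whereas Ltbp1 (-2.09 and 2.07), Ets1 (-1.74 and 1.59) and Socs1 (-1.97 and 1.59) each had elements in both directions. Over all kept elements nearest to the receptor genes 17 of 180 scored higher and 50 lower (9.44% and 27.8%, median -0.20), against 17.2% and 14.8% over all kept elements. Those nearest to granule genes had 16.6% higher and 23.3% lower, and those nearest to factor genes 13.5% and 20.2%. Set against the same 17.2% and 14.8%, both lists had a larger share of lower elements.

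Among the lists of other lineages the erythroid one had the largest share of higher promoter elements, and the lists did not all move the same way. The erythroid list had 35 of 61 promoter elements higher and 3 lower (median 0.51), led by both elements of Uros, a heme enzyme gene, at 17.3 and 8.42 against 52.2 and 61.7 (2.02) and at 12.2 and 5.46 against 27.8 and 33.8 (1.70). Ank1 (-1.09) and Sox6 (-1.03) had the largest falls, each at an element away from the RefSeq start, both lost their call in some alternatives, and each gene also had a higher element (0.96 and 0.70). The granulocyte list had 11 of 31 higher and 2 lower (35.5% and 6.45%, median 0.30), where all kept promoter elements had 25.0% and 9.06% and housekeeping genes 42.4% and 0%. The 2 lower ones were at Csf3r (-0.88) and Itgb2 (-0.52), both lost without CMP replicate 2 or CFUMK replicate 1. Among the higher ones, Camp scored 6.97 and 3.87 against 32.9 and 39.4 (2.58), S100a8, a calprotectin gene, 6.43 and 4.32 against 28.5 and 31.1 (2.29), Ms4a3 7.29 and 6.37 against 23.0 and 26.4 (1.64), Cebpb 6.43 and 6.60 against 18.2 and 19.8 (1.33) and Elane, the neutrophil elastase gene, 9.22 and 8.42 against 21.9 and 22.1 (1.11). Without CFUMK replicate 2 7 granulocyte and 22 erythroid elements were higher.

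As a share of the summed score of all kept promoter elements, the erythroid list had 0.218% and 0.202% in the CMP-labelled and 0.252% and 0.265% in the CFUMK-labelled libraries. The granulocyte list had 0.0623% and 0.0681% against 0.0728% and 0.0694%, the receptor list 0.107% and 0.115% against 0.0723% and 0.0697%, and the T and NK cell list 0.0453% and 0.0480% against 0.0339% and 0.0311%. The groups overlapped in none of these 4 lists, and of the 4 the gap was smallest for the granulocyte list. They overlapped only in the list of other tissues. The housekeeping list, for example, had 0.201% and 0.182% against 0.206% and 0.214%, and the stem and progenitor list 0.180% and 0.175% against 0.162% and 0.156%. A lack of overlap therefore does not set these 4 lists apart. Alas2, Icam4, Lcn2, Fpr1, Fpr2, Ptgir, Mpig6b, Cd36, Ppbp, Tubb1 and the T cell genes Cd3e and Cd4 had no promoter peak in any of the 4 libraries. T and NK genes had 0 of 18 promoter elements higher and 4 lower, B cell genes 1 of 14 and 0, monocyte and dendritic genes 8 of 46 and 7, stem and progenitor genes 12 of 62 and 8, mast, basophil and eosinophil genes 2 of 20 and 2, genes of the sort markers 2 of 16 and 4, and genes of other tissues 1 of 10 and 1. The listed genes named here and in the lists above for their promoter scores were picked after their values were seen. The part of other cell types in the score differences was not tested.

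**Figure D5:**
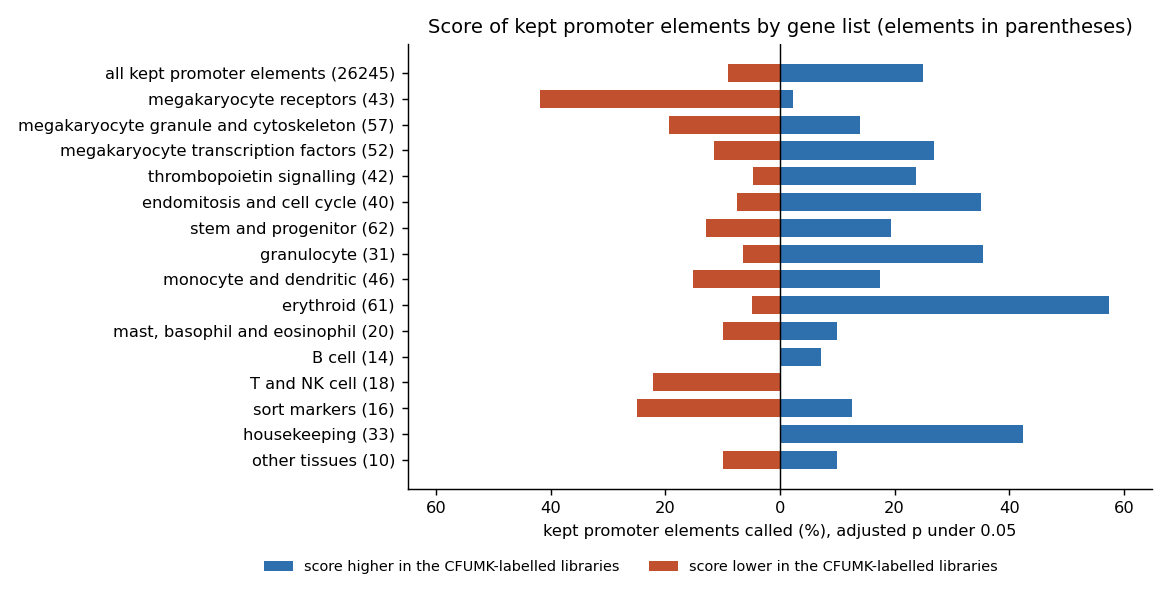
Bars give, for each gene list, the share (%) of its kept promoter elements that scored lower (to the left) or higher (to the right) in the CFUMK-labelled libraries at an adjusted p under 0.05, with the number of elements in parentheses. Against 9.06% lower and 25.0% higher over all kept promoter elements, megakaryocyte receptors have 41.9% lower and erythroid genes 57.4% higher.

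By gene window, the gene body with 20 kb on each side, no gene passed the test. The number of peaks per 100000 called peaks was compared by limma over 17018 protein-coding genes whose windows averaged 3 peaks or more, with the spread taken from all 24 libraries. The test called 0 genes (0%) at an adjusted p under 0.05, while 366 were higher and 151 lower at an unadjusted p under 0.05. Together these are fewer than such a threshold passes on average where no window differs. In the 4 libraries alone limma called 35 higher and 47 lower. The count of 0 does not show that the windows were alike. Among the marker windows, Pf4 had 15 and 15 peaks in the CMP-labelled and 15 and 14 in the CFUMK-labelled libraries, and Itga2b 12 and 12 against 12 and 13. Vwf had 32 and 40 against 36 and 30, Kit 23 and 23 against 21 and 27, and Gp1bb 12 and 11 against 6 and 11. The unadjusted differences in the granulocyte and erythroid lists, named after their values were seen, were Fcnb (10 and 8 against 20 and 21 peaks), Cebpb (11 and 9 against 16 and 16), Cybb (14 and 8 against 20 and 18), Car1 (12 and 4 against 18 and 17) and Rhag (9 and 12 against 15 and 15). In the other lists, Stim1 of the granule list (36 and 38 against 46 and 50) and Cma1 of the mast list (11 and 4 against 14 and 12) were higher. Lower were Pax5 of the B cell list (18 and 9 against 7 and 6) and Actb of the housekeeping list (10 and 14 against 5 and 6). All genes named here for their windows had a limma adjusted p of 0.999, so none of them is a call.

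Over all protein-coding windows 12960 of 85141 CMP elements (15.2%) were lost and 25206 of 97387 CFUMK elements (25.9%) were gained. Megakaryocyte receptor windows lost 34 of 247 and gained 60 of 273 (13.8% and 22.0%), granule and cytoskeleton windows 59 of 392 and 116 of 449 (15.1% and 25.8%), and factor windows 63 of 346 and 112 of 395 (18.2% and 28.4%). Granulocyte windows lost 23 of 227 and gained 81 of 285 (10.1% and 28.4%), and erythroid windows lost 52 of 335 and gained 127 of 410 (15.5% and 31.0%). Zfpm1 had 11 kept, 7 lost and 8 gained elements in its window, the shown pair among them, and Gfi1b 7 kept, 3 lost and 5 gained. At Pf4 and Itga2b no element was lost, and 3 and 2 were gained.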

How the data were processed

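Per the study's methods, the authors trimmed ATAC-seq reads to 30 bases, aligned them to mm10 with Bowtie 0.12.8, dropped mitochondrial, unplaced and unmapped reads, converted the alignments with SAMtools (1.6 in the submitters' processing notes, which differ from the methods in this version) and called peaks with HOMER. The deposited lists give a position and a score of unstated unit for each peak, and the fifth column holds whole numbers without a name. All peaks end within mm10 chromosomes, and no list of artefact regions was applied here. Groups were taken from the sample titles, and 0 columns belonged to other series. The gene lists (15 lists, with 354 of 356 names matched, some genes being in several) and the members were chosen with earlier results of these data known.

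Starts were the 132629 transcript starts of GENCODE vM21. For gene windows, log2 peaks per 100000 called peaks (prior of 1 peak) were fitted by limma 3.58.1 in R 4.3.3 with 12 group means, and for kept elements the highest score per library in the 4 libraries alone. P-values are two-sided, adjusted by Benjamini-Hochberg over all features tested. Both fits were tested on simulated data, in which the gene window fit missed most of the changes put in. Python 3.11.15, numpy 2.4.6, pandas 2.3.3 and pysam 0.24.0 were used. Named were listed genes with a promoter called in both libraries of 1 group and neither of the other, the 5 largest rises and falls of kept elements, and called elements nearest to megakaryocyte genes. Reads and signal tracks were not used here, and a few genes that these rules name are not reported here. Read depth is known only as the relative step of the scores, and it limits the calling of weak peaks.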

Additional observations from a re-analysis of the deposited data

How the results depend on the processing

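Alternatives changed the overlap, the peaks used, the promoter distance, the scaling and the libraries, and 2 (overlapping peaks merged, and the fifth column in place of the score) were chosen after seeing the data. With the 100000 strongest peaks of each list 52389 elements were kept, 10330 lost and 18964 gained. With a peak in either replicate 44242 were lost, and where neither library of the other group had a peak 9111 were lost and 16315 gained. Leaving out each library gave 11998 to 49851 lost and 20298 to 49220 gained elements. Promoter shares of kept, lost and gained elements were 23.1%, 13.1% and 9.22% within 500 bp and 37.5%, 21.8% and 19.2% with the strongest peaks. They were 17.7% of lost and 12.3% of gained elements without any peak in the other group, and 27.3% to 28.7%, 15.8% to 22.7% and 13.3% to 15.5% with each library left out.

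The gained minus lost difference in motif share was, with the strongest peaks, -9.74 points for RUNX, -10.2 for ERG and FLI1 and 2.92 for CTCF. Without any peak in the other group it was 11.1 for CEBP, -8.27 for RUNX and -8.31 for ERG and FLI1, and over whole elements -7.42 for RUNX. Leaving out each library gave 2.18 to 7.65 for GATA, 6.87 to 10.4 for CEBP, -7.37 to -2.92 for RUNX, -7.84 to -3.16 for ERG and FLI1 and 0.540 to 1.82 for CTCF. With a peak in either replicate of the other type, lost elements were found to 55.7% in LSK, 54.8% in GMP, 23.2% in MEP and 33.8% in iMK, and gained elements to 38.1%, 59.2%, 48.3% and 48.2%.

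Gene windows had 2 higher and 1 lower call with a prior of 3 peaks, 35 and 47 in the 4 libraries alone, and 19 and 2 with the strongest peaks. Leaving out each library gave 7362 to 19598 kept elements with a higher and 6685 to 17067 with a lower score, the lowest of both without CFUMK replicate 2. The same gave 1 to 3 higher promoter elements of megakaryocyte receptors, 1 to 3 higher and 0 to 1 lower ones of CMP markers and 0 to 1 higher ones of CFUMK markers. Lower ones of CMP markers were 2 under quantile normalization, 1 when centred on promoters and 1 with the fifth column. Of 93 named kept elements 70 held their call in every setting run, 23 lost it in at least 1, and 0 reversed. The cause of these changes was not tested. No paired analysis was run, because no label pairs a CMP-labelled with a CFUMK-labelled library. The order of the library numbers in the titles could be read as sets, and a fit with such sets as blocks was not run.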
